A study of Rattus norvegicus with 4 samples.

Results

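The genes of cholesterol synthesis and sterol regulation were described in INS-1 832/3 cells, an insulin-secreting line from a rat insulinoma, by their mRNA levels in monolayer (2D) and in bioprinted hydrogel (3D). The genes were a set of 27 named by function, and 26 of them were found by symbol among the 23360 genes listed. Lbr, a sterol reductase of the nuclear envelope, was not analysed here. All 26 passed the expression filter, a mean of at least 1 TPM (the abundance of a transcript corrected for its length and scaled to a fixed total per sample). The 2D group held 2 cultures grown as a standard monolayer. The 3D group held 2 cultures of the same line printed in GelXA LAMININK 411, a gelatin-based hydrogel with laminin-411. Cells of both groups were at passage 3, were harvested after 5 days and were kept in one RPMI-1640 medium with fetal bovine serum, which carries lipoprotein cholesterol. INS-1 is a single tumor line selected with Geneticin and carries a human insulin gene, which limits it as a model of a beta cell. In bulk RNA, fewer cells of a kind and less RNA per cell cannot be told apart.

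Cholesterol is built from acetyl-CoA through mevalonate to farnesyl pyrophosphate, which is either joined head to head into squalene or extended into geranylgeranyl pyrophosphate for protein prenylation. Squalene is cyclized to lanosterol, and a series of enzymes of the endoplasmic reticulum then trims and reduces the rings to cholesterol. SREBP2, the product of Srebf2, is escorted by SCAP to the Golgi when sterols are low, is cleaved there, and drives transcription of most of these genes, whereas the INSIG proteins retain SCAP when sterols are high. In beta cells, cholesterol of the plasma membrane and of secretory granules bears on insulin secretion.

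Each of the 4 samples summed to 1000000 TPM, with 19355 to 19959 transcripts above 0. Depth is lost in TPM, so the counting error of the values cannot be estimated here. The beta-cell genes Ins1, Ins2, Iapp, Slc2a2, Pdx1, Nkx6-1 and Chga were all detected and together took between 147000 and 169900 TPM per sample. The 4 endothelial markers that could be matched summed to between 1.08 and 1.68 TPM, nearly all of it Kdr, with Cdh5 listed at 0 throughout. The 4 fibroblast markers stayed below 0.025 TPM in sum, with Pdgfrb and Dcn listed at 0.

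Proximal promoters are shown for the 3 genes with the largest significant falls and the 2 with the largest significant rises, since SREBP2 and its partner NF-Y act close to the start site of sterol genes. The sequences are those of RefSeq for the GRCr8 assembly, which is not the build the authors named, and give the 250 bases before the annotated start, 5′ to 3′ on the strand of the gene. Capitals mark CACNCCAC, taken as the core of the sterol regulatory element, and CCAAT, the box bound by NF-Y, each searched on both strands, so that the reverse complements are in capitals too. The 2 motifs do not overlap each other in these 5 promoters.
Mvd, chr19:67414975-67415224, minus strand: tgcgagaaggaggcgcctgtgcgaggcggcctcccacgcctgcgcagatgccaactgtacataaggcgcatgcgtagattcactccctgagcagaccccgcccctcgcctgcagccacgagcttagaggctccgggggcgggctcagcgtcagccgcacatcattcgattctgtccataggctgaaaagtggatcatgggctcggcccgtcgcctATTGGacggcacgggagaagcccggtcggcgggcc
Mvk, chr12:47819504-47819753, minus strand: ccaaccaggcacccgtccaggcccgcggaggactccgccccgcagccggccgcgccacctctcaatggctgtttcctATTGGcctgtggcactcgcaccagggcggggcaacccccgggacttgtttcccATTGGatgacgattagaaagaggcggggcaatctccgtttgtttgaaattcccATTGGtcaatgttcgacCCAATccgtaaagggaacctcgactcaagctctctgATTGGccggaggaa
Ebp, chrX:16971212-16971461, plus strand: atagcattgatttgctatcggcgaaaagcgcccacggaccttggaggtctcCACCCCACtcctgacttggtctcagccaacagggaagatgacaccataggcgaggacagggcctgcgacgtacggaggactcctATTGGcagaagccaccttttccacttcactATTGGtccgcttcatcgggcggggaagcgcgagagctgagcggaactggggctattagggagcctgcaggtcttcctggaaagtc
Insig1, chr4:8057770-8058019, minus strand: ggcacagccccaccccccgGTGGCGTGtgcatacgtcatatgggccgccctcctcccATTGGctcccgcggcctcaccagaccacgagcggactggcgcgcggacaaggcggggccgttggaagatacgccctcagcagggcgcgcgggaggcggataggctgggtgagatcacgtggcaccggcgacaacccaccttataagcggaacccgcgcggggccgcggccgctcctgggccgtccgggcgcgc
Abca1, chr5:72596474-72596723, minus strand: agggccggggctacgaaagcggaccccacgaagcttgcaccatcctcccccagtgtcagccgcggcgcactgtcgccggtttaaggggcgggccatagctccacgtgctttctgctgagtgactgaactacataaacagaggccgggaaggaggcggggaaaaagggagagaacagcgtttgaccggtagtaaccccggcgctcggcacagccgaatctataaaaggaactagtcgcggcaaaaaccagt

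The Mvk promoter held 5 CCAAT boxes, which began 173, 120, 67, 50 and 14 bases before the start. Mvd had 1, 35 bases before the start, and Ebp had 2, together with a CACNCCAC match 199 bases before the start. Insig1 had 1 match of each kind. Neither motif occurred in the Abca1 window. Promoters were at hand for 22 of the 26 genes, all but Pmvk, Fdft1, Sqle and Stard4. CCAAT was found in 17 of the 22 (77.3%), against 35.4% of 9833 promoters of genes tested and 34.0% of all 33469 promoters of the table. At least 2 CCAAT boxes were present in 8 of the 22 (36.4%), against 13.0% and 9.42%. CACNCCAC was found in 3 of the 22 (13.6%), those of Acat2, Ebp and Insig1, against 4.82% and 4.89%. The CCAAT box occurred in 4 of the 6 promoters of genes lower in 3D culture, in 2 of the 3 of genes that were higher and in 11 of the 13 of genes that did not pass the test, so the box was common whatever the direction. These matches describe letters in a window and were not tested as binding sites.

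Among the 26 genes, 9 changed between 2D and 3D culture. Acat2, Mvk, Mvd, Fdps, Ebp and Dhcr7, all enzymes of synthesis, were lower in 3D, and Insig1, Ggps1 and Abca1, which are not enzymes of the main line, were higher. The changes were small, with log2 fold changes between -0.66 and 0.39. Significance was called at an adjusted p below 0.05 in limma over all 11960 genes tested, on log2(TPM + 1) of TPM scaled between samples. The 9 of 26 (34.6%) lay close to the 38.0% of all genes tested that were called. The 6 lower genes (23.1%) stood against 19.5% and the 3 higher genes (11.5%) against 18.5%. As a set, these genes were thus not called more often than genes at large. Their median log2 fold change was -0.01, beside -0.0031 over all genes tested. TPM of the groups did not overlap in 18 of the 26, 9 with both 3D cultures above and 9 below, against 74.2% of all genes tested, 41.1% above and 33.2% below. The smallest two-sided p of an exact permutation test is 0.33 for 2 cultures against 2, so the calls lean on the variance that limma borrows from other genes. The calls depended on both 3D cultures being present. Without 3D replicate 1, 0 of the 26 genes (9 at an unadjusted p below 0.05) and 136 of all genes passed in limma, and without 3D replicate 2, 2 of the 26 (Mvk and Mvd) and 1037 of all genes passed. Without 2D replicate 1, 11 of the 26 passed, and without 2D replicate 2, 8 passed, without Fdps and Ggps1. All 9 changed genes kept their direction with any culture left out. That was to be foreseen, since the TPM of their groups did not overlap, and it adds no support to the calls.

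**Figure D1:**
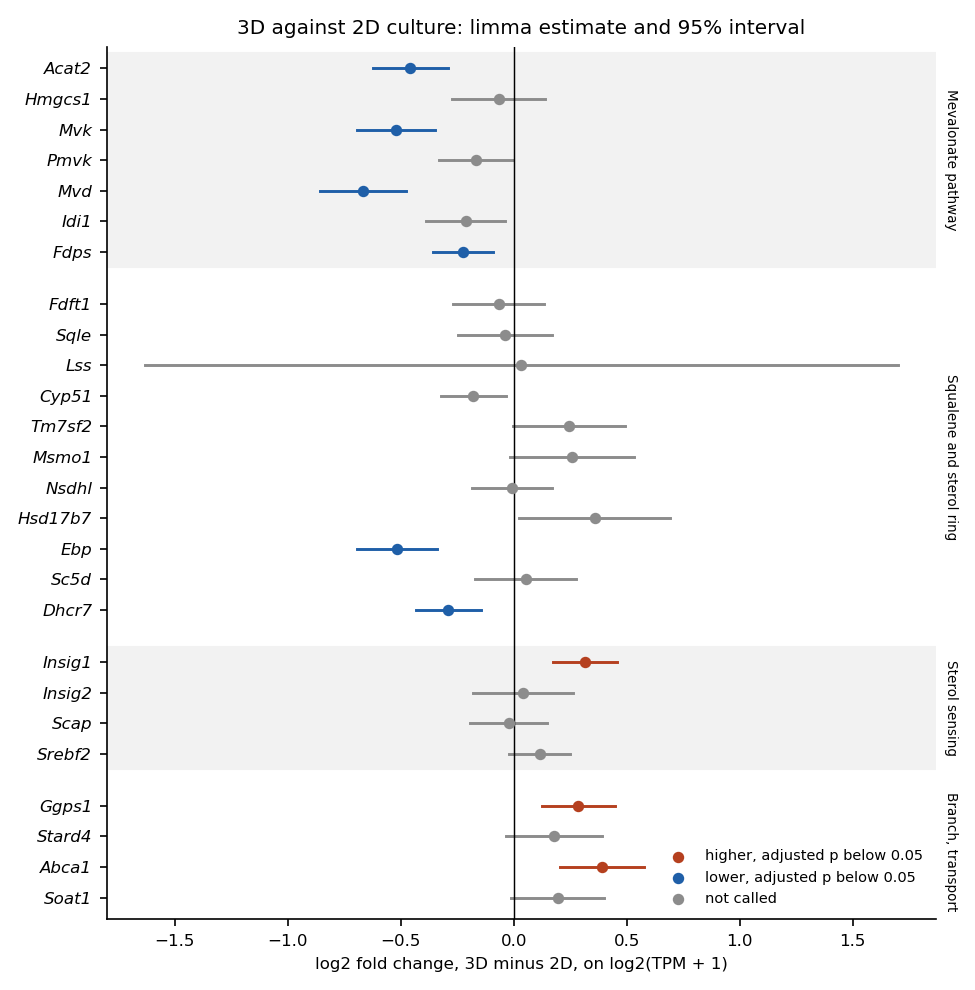
Log2 fold change of each gene, 3D minus 2D, on log2(TPM + 1), with its 95% interval from limma, genes in the order of the pathway. Colored points passed an adjusted p of 0.05. Groups by function were chosen with earlier results of these data known. All 7 mevalonate pathway genes lie left of 0, from -0.66 for Mvd to -0.07 for Hmgcs1, the 4 genes of branch and transport lie right of it, and the interval of Lss is the widest.

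Of the 7 enzymes of the mevalonate pathway, 4 fell significantly (57.1%), against 19.5% of all genes tested. The groups by function were chosen with earlier results of these data known. Their shares and shared signs are therefore a description and no independent support. All 7 had a negative log2 fold change, as did 6034 of the 11960 genes tested, and their median was -0.22. Their TPM summed to 428 and 418 in the 2D cultures and to 362 and 351 in the 3D cultures, so that the sum fell by 15.7%. The 8 proliferation markers tested (Mki67, Top2a, Ccnb1, Cdk1, Aurka, Pcna, Mcm2 and Mcm5) fell together with these enzymes, all 8 significantly, against 19.5% of all genes tested. These markers summed to 966 and 934 TPM in 2D and to 724 and 747 TPM in 3D. Mitochondrially encoded transcripts moved the other way, from 9.35% and 10.1% of TPM in 2D to 12.3% and 13.0% in 3D. The part of either in the changes of cholesterol genes was not tested.

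Mvd, the decarboxylase that makes isopentenyl pyrophosphate, had the largest log2 fold change of the 26 genes on this scale. It had 52.0 and 54.0 TPM in the 2D cultures and 35.5 and 32.8 TPM in the 3D cultures. Both 3D cultures lay well below both 2D cultures, and the mean fell by 35.7%, a log2 fold change of -0.66 (standard error [SE] 0.076, limma adjusted p = 0.0051). Mvk, mevalonate kinase, was at 28.6 and 28.3 TPM in 2D and at 19.2 and 21.2 TPM in 3D. Its 2D cultures were nearly equal and its log2 fold change was -0.52 (SE 0.069, limma adjusted p = 0.0064). Acat2, the cytosolic thiolase that condenses acetyl-CoA at the head of the pathway, had 30.2 and 29.3 TPM in 2D and 22.8 and 21.3 TPM in 3D, again without overlap, with a log2 fold change of -0.46 (SE 0.066, limma adjusted p = 0.0076). Fdps, farnesyl pyrophosphate synthase, was the most abundant of the 26 genes. It had 171 and 168 TPM in 2D and 149 in both 3D cultures. The groups were apart by more than their spread but the change was small, a log2 fold change of -0.22 (SE 0.053, limma adjusted p = 0.0247), and its adjusted p was 0.0504 without the intensity trend. The fall of Fdps lay in its main transcript, ENSRNOT00000065065.2, with 140 and 133 TPM in 2D and 118 and 114 TPM in 3D. Its other transcripts overlapped between groups.

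The kinase and isomerase between these steps did not pass the test, although their groups did not overlap. Pmvk, phosphomevalonate kinase, had 39.5 and 40.9 TPM in 2D and 36.9 and 36.6 TPM in 3D, with a log2 fold change of -0.17 (95% interval -0.33 to -0.0043, limma adjusted p = 0.0926). Idi1, which isomerizes isopentenyl pyrophosphate, had 66.1 and 63.6 TPM in 2D and 60.3 and 54.9 TPM in 3D, a log2 fold change of -0.21 (95% interval -0.39 to -0.04, limma adjusted p = 0.0605). Hmgcs1, the synthase that makes HMG-CoA and a strong target of SREBP2, had overlapping groups. It stood at 40.5 and 34.4 TPM in 2D and at 38.2 and 35.3 TPM in 3D, and the interval of its log2 fold change, -0.27 to 0.14, leaves room for a change of either sign. Neighboring enzymes of one pathway thus had unequal values, and the ratio of Mvd to Idi1 was 0.788 and 0.850 in 2D and 0.588 and 0.597 in 3D.

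**Figure D2:**
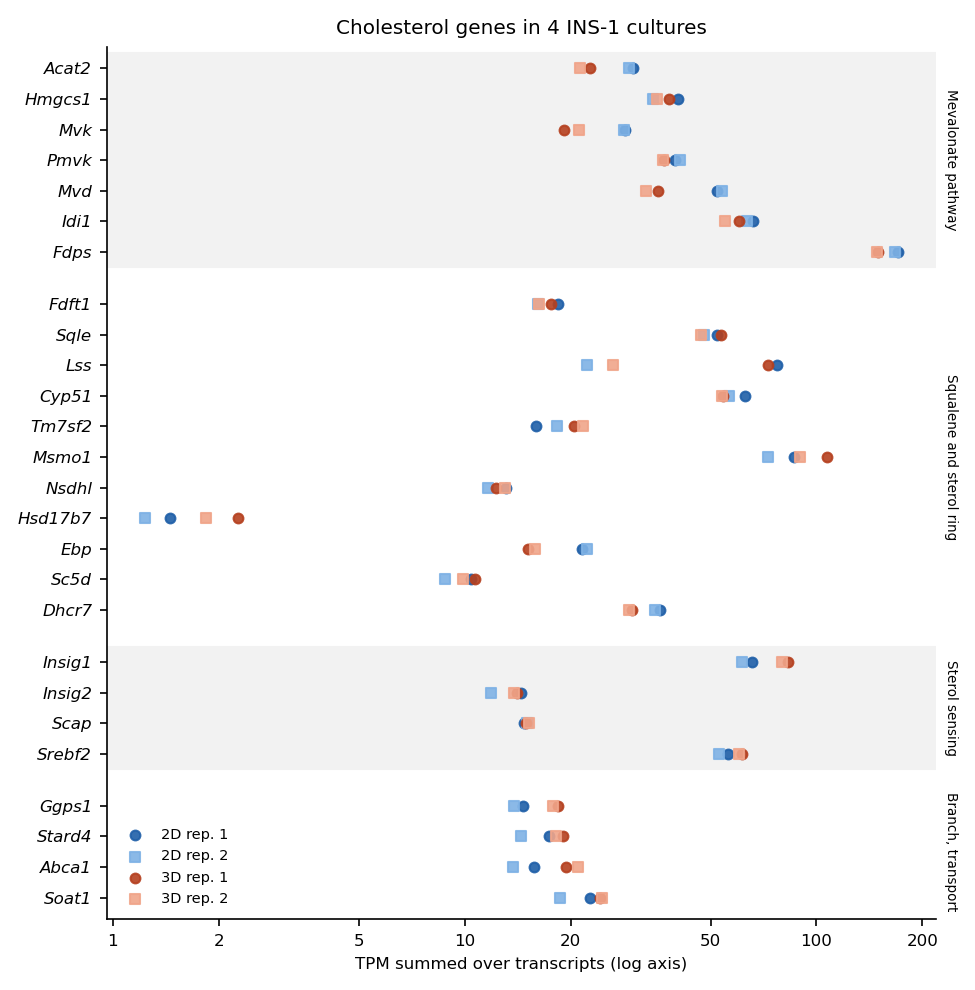
TPM of the 26 genes in each of the 4 cultures, summed over transcripts, on a log axis. Blue marks are 2D and red marks 3D cultures, circles replicate 1 and squares replicate 2. Levels run from 1.23 TPM for Hsd17b7 to 171 TPM for Fdps, and the marks of Lss lie far apart by replicate number.

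The 11 enzymes from squalene to cholesterol were mixed, with 2 falls, no rise and 9 genes that did not pass the test. The 2 falls were 18.2% of these enzymes, close to the 19.5% of all genes tested that fell, while 18.5% of all genes rose. The median log2 fold change of the 11 enzymes was -0.0067, with 5 values above and 6 below 0. Without Lss, which is treated separately, their TPM summed to 318 and 290 in 2D and to 323 and 298 in 3D, and the groups overlapped. Both falls were of enzymes that act on the sterol nucleus late in the route, but Sc5d, another late enzyme, had overlapping groups. Ebp, the isomerase that shifts the ring double bond, had 21.5 and 22.3 TPM in 2D and 15.1 and 15.9 TPM in 3D. The 3D cultures were lower without overlap, a log2 fold change of -0.52 (SE 0.071, limma adjusted p = 0.0069). Dhcr7, which reduces 7-dehydrocholesterol to cholesterol, had 35.9 and 34.7 TPM in 2D and 29.9 and 29.3 TPM in 3D, a log2 fold change of -0.29 (SE 0.057, limma adjusted p = 0.0158). Both of its transcripts lay lower in 3D, and the main one, ENSRNOT00000078979.1, had 29.2 and 28.7 TPM in 2D and 24.5 and 23.8 TPM in 3D.

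Genes at the entry into the sterol branch had overlapping groups. Fdft1, squalene synthase, had 18.4 and 16.1 TPM in 2D and 17.6 and 16.2 TPM in 3D. Sqle, the squalene epoxidase that is a control point of the pathway, had 52.1 and 47.8 TPM in 2D and 53.4 and 46.9 TPM in 3D. In both, the replicates of a group differed by more than the groups did, and the 95% intervals of the log2 fold changes were -0.27 to 0.13 for Fdft1 and -0.24 to 0.17 for Sqle. Cyp51, the lanosterol demethylase, had 62.7 and 56.5 TPM in 2D and 54.3 and 54.0 TPM in 3D. The groups did not overlap but the call was missed, with a log2 fold change of -0.18 (limma adjusted p = 0.0576, and 0.0459 with no expression filter). Nsdhl, a sterol dehydrogenase of the demethylation steps, had 13.1 and 11.6 TPM in 2D and 12.3 and 13.0 TPM in 3D, and Sc5d, a sterol desaturase, had 10.4 and 8.81 TPM in 2D and 10.7 and 9.89 TPM in 3D. Neither showed a difference between groups beyond the spread of the replicates.

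For 3 other enzymes of the ring, both 3D cultures lay above both 2D cultures without a call. Such an order, called or not, was seen in 41.1% of all genes tested. Msmo1, the sterol methyl oxidase, had 86.5 and 72.9 TPM in 2D and 107 and 89.8 TPM in 3D. Tm7sf2, a sterol reductase, had 15.9 and 18.3 TPM in 2D and 20.5 and 21.7 TPM in 3D. Hsd17b7, a ketosteroid reductase, was the lowest of the 26 genes, at 1.45 and 1.23 TPM in 2D and 2.27 and 1.84 TPM in 3D, where the added 1 lowers the fold change. Their log2 fold changes were 0.26, 0.25 and 0.36, and limma gave adjusted p of 0.113, 0.0997 and 0.0833. Msmo1 differed by 17.5 TPM between the 3D cultures, more than the gap that separated the groups. Each of the 3 passed in limma under some other setting, Msmo1 and Tm7sf2 with the replicate number as a block (adjusted p = 0.0222 and 0.0493), Tm7sf2 also without 2D replicate 2 (0.0305), and Hsd17b7 without the intensity trend (0.0455).

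Lss, the cyclase that turns squalene epoxide into lanosterol, differed by replicate number and not by culture. It had 77.2 TPM in 2D replicate 1 and 72.9 TPM in 3D replicate 1, but 22.3 TPM in 2D replicate 2 and 26.4 TPM in 3D replicate 2. The log2 fold change of 0.03 therefore had a standard error of 0.67 and a 95% interval from -1.63 to 1.70, and at this spread a change of Lss was not detectable. The difference lay in 2 of its 4 listed transcripts. ENSRNOT00000085270.1 had 47.8 and 43.6 TPM in the replicate 1 cultures of 2D and 3D, and was listed at 0 in both replicate 2 cultures. ENSRNOT00000081903.1 had 4.75 and 2.59 TPM in replicate 1 and was likewise listed at 0 in replicate 2. The transcript ENSRNOT00000078412.1 followed the culture instead, with 19.0 and 18.2 TPM in 2D and 22.5 and 22.9 TPM in 3D, a log2 fold change of 0.22 (limma adjusted p = 0.0587 over 15020 transcripts, a fit chosen after the values had been seen). Summed without the 2 transcripts at 0, Lss had a log2 fold change of 0.13 (limma adjusted p = 0.138). Why these transcripts followed the replicate number was not tested.

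**Figure D3:**
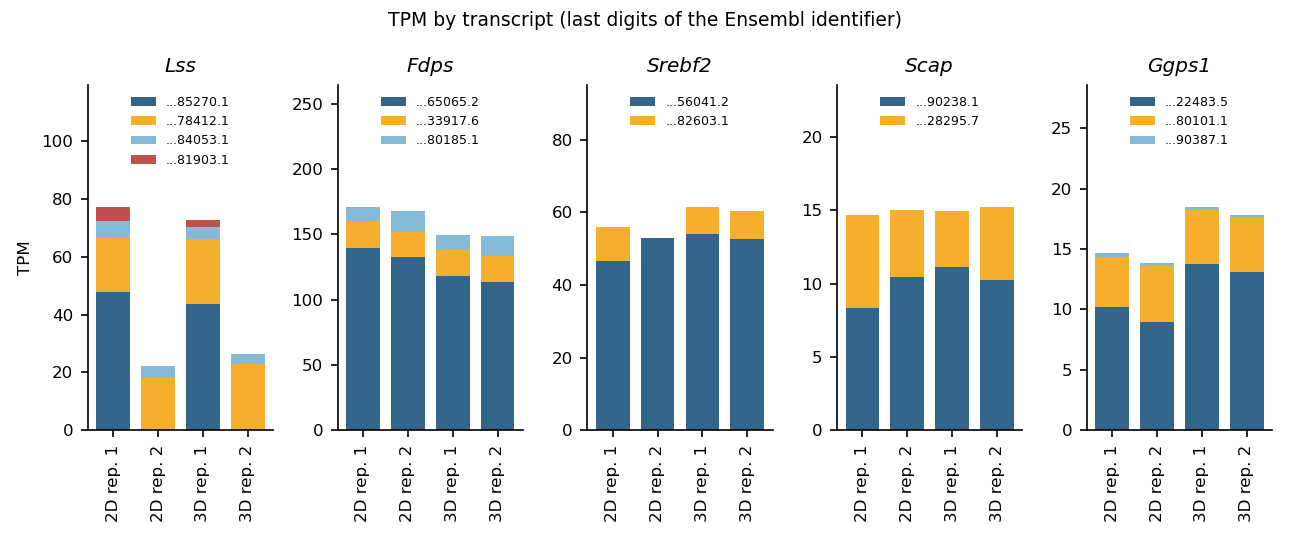
TPM of each listed transcript, stacked to the gene total, in the 4 cultures for Lss, Fdps, Srebf2, Scap and Ggps1, with transcripts named by the last digits of their identifier. The dark blue part of Lss, 47.8 and 43.6 TPM in the replicate 1 cultures, is at 0 in both replicate 2 cultures, and the second transcript of Srebf2 is at 0 in 2D replicate 2.

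Among the 4 genes of sterol sensing, Insig1 rose (25.0% of them, against 18.5% of all genes tested) and the others did not pass the test. Insig1, which holds SCAP in the endoplasmic reticulum and is itself a target of SREBP2, had 65.5 and 61.3 TPM in 2D and 83.1 and 80.0 TPM in 3D. Both 3D cultures were clearly above both 2D cultures, with a log2 fold change of 0.32 (SE 0.056, limma adjusted p = 0.0120). Its paralog Insig2, which is not induced by SREBP2 in the same way, had 14.5 and 11.9 TPM in 2D and 14.1 and 13.8 TPM in 3D, with overlapping groups and a 95% interval of the log2 fold change from -0.18 to 0.26. The ratio of Insig1 to Insig2, both in TPM, was 4.53 and 5.16 in 2D and 5.90 and 5.80 in 3D. Insig1 was thus the main form in all 4 cultures, by a wider margin in 3D. Srebf2 had 56.0 and 52.8 TPM in 2D and 61.4 and 60.3 TPM in 3D, above without overlap but with a log2 fold change of only 0.12 (limma adjusted p = 0.140). Of its 2 transcripts, ENSRNOT00000082603.1 was listed at 0 in 2D replicate 2 and had 7.31 to 9.29 TPM in the other 3 cultures, while ENSRNOT00000056041.2 overlapped between groups. Scap was the steadiest of the 26 genes, with 14.7 and 15.0 TPM in 2D and 14.9 and 15.2 TPM in 3D, and the interval of its log2 fold change ran from -0.19 to 0.15. Insig1 therefore rose while the transcripts of the factor and its escort showed no difference that passed the test.

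The 4 genes of the isoprenoid branch and of sterol transport, efflux and storage all had both 3D cultures above both 2D cultures. Of these, 2 rose significantly. Among all genes tested, 41.1% had both 3D cultures above and 18.5% rose significantly. Whether the shared order is a trait of these 4 genes was not tested. Ggps1, geranylgeranyl pyrophosphate synthase, had 14.7 and 13.9 TPM in 2D and 18.5 and 17.8 TPM in 3D, a log2 fold change of 0.29 (SE 0.065, limma adjusted p = 0.0224). Its adjusted p was 0.0519 with no expression filter. The rise lay in the transcript ENSRNOT00000022483.5, with 10.2 and 8.97 TPM in 2D and 13.7 and 13.1 TPM in 3D (log2 fold change 0.39, limma adjusted p = 0.0359 over transcripts, where 23.5% of all transcripts were called), while ENSRNOT00000080101.1 stayed between 4.14 and 4.60 TPM in all cultures. Ggps1 extends the product of Fdps, and the ratio of Fdps to Ggps1 was 11.6 and 12.1 in 2D and 8.09 and 8.37 in 3D. Their opposite changes narrowed the gap between them in both 3D cultures.

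Abca1, the pump that loads cholesterol onto apolipoproteins for efflux, had the largest rise among the genes that passed the test, although Hsd17b7 had a larger difference in percent of TPM (53.6% against 37.1%) without a call. It had 15.8 and 13.7 TPM in 2D and 19.4 and 21.0 TPM in 3D, a log2 fold change of 0.39 (SE 0.075, limma adjusted p = 0.0143). Soat1, which esterifies cholesterol for storage, had 22.7 and 18.7 TPM in 2D and 24.3 and 24.6 TPM in 3D. Stard4, a cytosolic sterol carrier, had 17.3 and 14.5 TPM in 2D and 19.1 and 18.2 TPM in 3D. For both, the 2D cultures were further apart than the 3D cultures, and the log2 fold changes of 0.20 and 0.18 did not pass (limma adjusted p = 0.111 and 0.144).

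**Figure D4:**
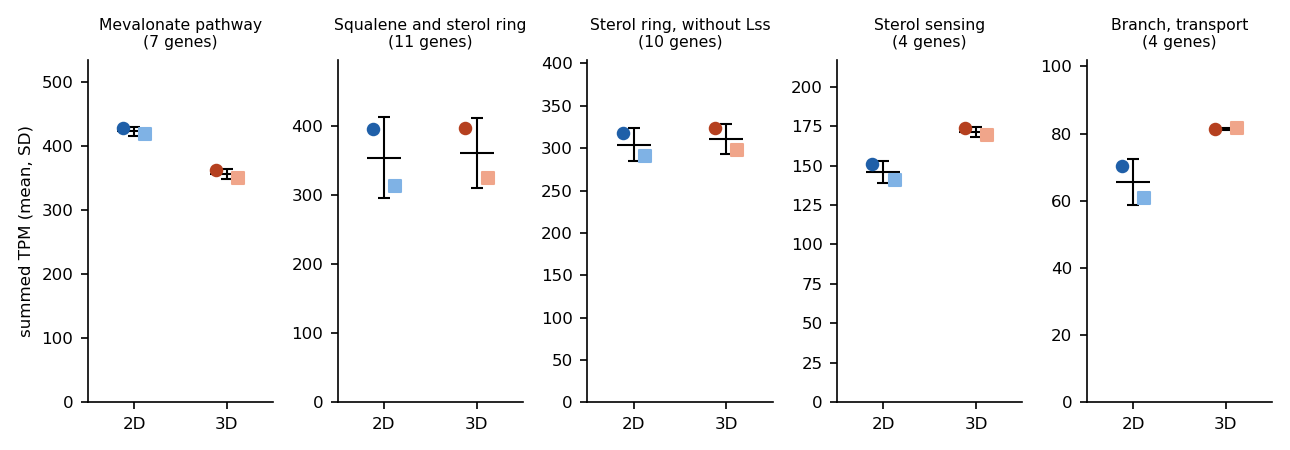
Summed TPM of each functional group in the 4 cultures, with the mean and SD of each group of 2, and axes that start at 0. Circles are replicate 1 and squares replicate 2. The mevalonate sum lies lower in 3D (351 and 362 against 418 and 428 TPM), the sums of sensing and of branch and transport lie higher, and the sterol ring sums overlap with or without Lss.

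Apart from the sterol ring, the sums of these groups, chosen with earlier results of these data known, separated in opposite directions. Sterol sensing genes summed to 151 and 141 TPM in 2D and to 173 and 169 TPM in 3D, mostly Insig1 and Srebf2, and the branch and transport genes to 70.5 and 60.7 TPM in 2D and to 81.3 and 81.6 TPM in 3D. By level, the 26 genes ran from a mean of 1.70 to one of 159 TPM. Fdps, with a mean of 159 TPM over the 4 cultures, stood above Msmo1 (89.1 TPM) and Insig1 (72.5 TPM), and the range of Fdps (149 to 171 TPM) did not meet that of any other. Idi1, Srebf2 and Cyp51, between 56.9 and 61.2 TPM in the mean, had overlapping ranges and cannot be ordered beyond their spread. Sqle (46.9 to 53.4 TPM) lay below Idi1 and Cyp51 and overlapped with Srebf2. The lower end was formed by Nsdhl (12.5 TPM), Sc5d (9.96 TPM) and Hsd17b7 (1.70 TPM).

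Other genes of the pathway were taken by function, from 4 lists of 44 symbols, of which 41 were tested. Of these, 8 rose and 4 fell significantly (29.3%), below the 38.0% of all genes tested, with the rises at 19.5% against 18.5% and the falls at 9.76% against 19.5%. In the list of SREBP processing and sterol-dependent degradation, 1 of 9 rose and 1 fell (11.1% each, against 18.5% and 19.5% of all genes tested). Its median log2 fold change was 0.10. Tmem97, the sigma-2 receptor and itself a sterol-responsive gene, fell from 84.1 and 76.9 TPM to 51.3 and 55.6 TPM, and its log2 fold change was -0.62 (limma adjusted p = 0.0041). Mbtps2, the site-2 protease that releases SREBP, rose from 6.95 and 6.29 TPM to 9.06 and 8.86 TPM, and its log2 fold change was 0.35 (limma adjusted p = 0.0199). In the list of isoprenoid use, 1 of 12 tested genes rose (8.33%, against 18.5% of all genes tested) and 2 fell (16.7%, against 19.5%), with a median of -0.12. The falls were those of Coq2, a prenyltransferase of ubiquinone synthesis (41.5 and 40.5 TPM in 2D, 32.7 and 32.4 TPM in 3D), and Fnta, the alpha subunit of farnesyltransferase (62.0 and 60.3 TPM in 2D, 51.4 and 51.7 TPM in 3D). The list of cytosolic acetyl-CoA supply gave 0 calls among 4 genes in limma, against 38.0% of all genes tested. It also held Acat1, a mitochondrial thiolase, which its name does not cover. Of the 4, 2 had an unadjusted p below 0.05 in limma (Acly and Slc25a1, named after their values had been seen). The median log2 fold change of this list was 0.07.

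Genes of sterol uptake, transport and efflux held 6 rises and 1 fall among 16 tested (median 0.08, with 8 values above and 8 below 0). The rises were 37.5% of the list, against 18.5% of all genes tested, and the fall was 6.25%, against 19.5%. The uptake receptors Scarb1 and Vldlr and the efflux pump Abcg1 had overlapping groups and did not pass. Their log2 fold changes were -0.09, -0.05 and -0.08, and they were named after their values had been seen. Osbpl8, an oxysterol-binding protein of membrane contact sites, rose from 4.62 and 3.27 TPM to 7.28 and 7.45 TPM, and its log2 fold change was 0.74 (limma adjusted p = 0.0116). Nceh1, a neutral cholesterol ester hydrolase, rose from 14.6 and 12.8 TPM to 18.9 and 18.0 TPM, and its log2 fold change was 0.37 (limma adjusted p = 0.0164). Of the genes not tested, Nr1h3, which encodes LXR-alpha, was at or below 0.068 TPM, and Soat2 between 0.18 and 0.30 TPM, so that Soat1 was the form of sterol acyltransferase detected above the filter.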

How the data were processed

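Messenger RNA of INS-1 832/3 cells was sequenced as stranded single-end libraries in 2 monolayer and 2 bioprinted cultures. Per the labels and the methods, the authors checked reads with FastQC 0.11.8, quantified them per transcript with Salmon 1.2 against rn4 plus a human insulin gene, and deposited TPM with decimal commas. The count-based test of the methods needs counts, which TPM do not carry. TPM were added up by gene symbol, and genes whose mean TPM reached 1 were kept. Samples were scaled by trimmed means of M values, unweighted (trimming 30% of M and 5% of A on either side, factors from 0.960 to 1.02). Levels printed are TPM as deposited. The test was limma 3.58.1 on log2(TPM + 1), with an intensity trend in the empirical Bayes step, in R 4.3.3, with Benjamini-Hochberg adjustment over all 11960 genes. The added 1 makes fold changes of low genes too small. Reads shared between transcripts of a gene, or between near-identical copies, are divided by the quantification. TPM carries no depth, and 2 cultures per group set the precision. The fit was run on simulated TPM with known changes. Far fewer genes changed there than were called here, and the simulated spread followed the mean level alone. The simulation therefore does not give the error rate in these data.

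The genes, lists and groups by function were chosen with earlier results of these data known. All 26 cholesterol genes are named, and of each other list up to 2 called genes with the smallest p. Further genes of those lists were named after their values had been seen. Promoters were matched by symbol in the RefSeq GRCr8 table. As alternatives, the scaling, the filter, the pseudocount, the empirical Bayes trend, the replicate block, the threshold, the most abundant transcript per gene and the cultures used (each left out in turn) were varied. The fit over transcripts and Lss summed without 2 transcripts were added after seeing the data.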

Additional observations from a re-analysis of the deposited data

How the results depend on the processing

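Among the 10 settings other than leaving out a culture, the number of cholesterol genes called in limma was 9 in 8 of them, and Acat2, Mvk, Mvd, Ebp, Dhcr7, Insig1 and Abca1 had an adjusted p below 0.05 in all 10. The 9 were not always the same genes, since Cyp51 took the place of Ggps1 with no filter and Hsd17b7 that of Fdps without the trend. At an adjusted p below 0.01, 4 of the 26 genes were left (Acat2, Mvk, Mvd and Ebp, all lower, and 0 higher), and 1418 of all genes, 724 higher and 694 lower. No label ties same-numbered cultures to one batch, and the deviations of same-numbered cultures had a correlation of -0.006 across genes. With the replicate number as a block, 11 cholesterol genes were called, 5 of them higher, the additions being Tm7sf2 and Msmo1, and 4814 of all genes. Without scaling, the median log2 fold change of all genes was 0.0364, and Sqle (0.0042), Nsdhl (0.0335) and Scap (0.0184) changed sign. So did Nsdhl (0.0165) and Scap (0.0011) with a mean TPM of at least 5, Lss (-0.0019) without a filter, and Lss (-0.0612), Nsdhl (0.0001) and Scap (0.1399) on the most abundant transcript alone. None of these passed the test in any of the 10 settings. Their cause was not tested.

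With each culture left out in turn, 0 to 11 cholesterol genes were called, 0 to 4 higher and 0 to 7 lower, and 136 to 4515 of all genes, 105 to 2282 higher and 31 to 2233 lower. In these fits the lone culture of a group is assumed to vary like the other group, and 3 samples are left. Log2 fold changes changed sign for Hmgcs1 (-0.15 to 0.01), Fdft1 (-0.13 to 0.003), Sqle (-0.14 to 0.067), Lss (-0.81 to 0.87), Nsdhl (-0.053 to 0.035), Sc5d (-0.026 to 0.13), Insig2 (-0.059 to 0.14) and Scap (-0.074 to 0.024), none of which was called.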

Other observations

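The pattern of Lss was rare among transcripts. Over all 31201 transcripts listed, 2 had at least 5 TPM in both replicate 1 cultures and 0 in both replicate 2 cultures, one of them ENSRNOT00000085270.1 of Lss, and 0 had the reverse pattern. For comparison, 3 transcripts had at least 5 TPM in both 2D cultures and 0 in both 3D cultures, and 7 the reverse, none of them of a cholesterol gene. The minimum of 5 TPM was chosen after the values of Lss had been seen, and the cause of the pattern was not tested.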
